A study of Mus musculus with 30 samples.

Results

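The genes described here are 38 members of glycolysis and the hypoxia response, taken by symbol from the 30587 named entries of an RNA sequencing table and all found there. They comprise 4 transporters of glucose and lactate, 16 glycolytic enzymes, 4 regulators of glycolytic flux, 3 genes of the hypoxia-inducible factor (HIF) and its oxygen sensors, and 11 targets of HIF. The members were read in natural killer (NK) cells, sorted as NKp46-GFP+ after skin grafting, in 30 libraries that form 10 groups of 3.

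In the B6 model, C57BL/6 recipients of genotype NKp46iCre/iCre.RosamTmG/mTmG carried a graft of m157tg B2m-/- skin and the cells were sorted at day 20. In the F1 model, C57BL/6xBalb/c recipients of genotype NKp46+/iCre.Rosa+/mTmG carried m157tg B2m+/- skin and the cells were sorted at day 10. Each model had CD49b+ cells from the graft, CD49a+ cells from the graft, CD49a+ cells from the recipient's own skin, CD49b+ cells from spleen and CD49b+ cells from blood. All grafts carried the m157 transgene, and in all recipients the green label marks cells in which Cre made from the NKp46 gene has been active. The models differ in strain, in the number of Cre and reporter alleles, in the B2m alleles of the graft and in the day, and these cannot be told apart. The labels do not say whether the 3 libraries of a group came from separate animals, so p-values measure only the spread between these libraries.

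Glycolysis splits glucose into pyruvate and yields ATP without oxygen, and lactate dehydrogenase and the monocarboxylate transporters then dispose of the pyruvate as lactate. When oxygen falls, the prolyl hydroxylases stop marking HIF for destruction, and HIF binds short motifs near its targets, which include most glycolytic genes as well as genes of angiogenesis, mitophagy and the feedback on HIF itself. In NK cells, glycolysis increases upon activation by cytokines, and Hif1a is known to act in NK cells within hypoxic tissue such as tumours.

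The stretches of 250 bases before the start of Hk2 and Vegfa, which rose in skin, are shown beside those of Pgk1 and Ldha, classical HIF targets that passed the threshold in none of the comparisons. They come from RefSeq on GRCm38.p6 and run 5′ to 3′ on the strand of the gene. Capitals mark ACGTG or GCGTG, the core letters that HIF binds, on either strand (CACGT and CACGC are the same letters read on the other strand, and CACGTG holds an overlapping match on each strand).

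Hk2 (chr6:82774455-82774704, minus strand): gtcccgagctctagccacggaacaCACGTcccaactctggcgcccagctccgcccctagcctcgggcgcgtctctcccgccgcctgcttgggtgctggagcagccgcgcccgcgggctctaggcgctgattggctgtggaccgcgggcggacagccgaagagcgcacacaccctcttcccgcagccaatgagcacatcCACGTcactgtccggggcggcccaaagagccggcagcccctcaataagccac
Vegfa (chr17:46032378-46032627, minus strand): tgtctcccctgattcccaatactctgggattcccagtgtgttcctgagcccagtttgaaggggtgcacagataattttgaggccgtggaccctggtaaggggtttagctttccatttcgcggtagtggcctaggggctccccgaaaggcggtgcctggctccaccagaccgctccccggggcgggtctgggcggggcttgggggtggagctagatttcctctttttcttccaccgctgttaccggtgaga
Pgk1 (chrX:106186850-106187099, plus strand): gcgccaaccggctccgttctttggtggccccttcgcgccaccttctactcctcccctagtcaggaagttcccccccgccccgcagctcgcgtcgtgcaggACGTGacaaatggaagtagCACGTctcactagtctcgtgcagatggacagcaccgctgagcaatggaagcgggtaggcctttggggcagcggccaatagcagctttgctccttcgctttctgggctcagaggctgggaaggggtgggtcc
Ldha (chr7:46845554-46845803, plus strand): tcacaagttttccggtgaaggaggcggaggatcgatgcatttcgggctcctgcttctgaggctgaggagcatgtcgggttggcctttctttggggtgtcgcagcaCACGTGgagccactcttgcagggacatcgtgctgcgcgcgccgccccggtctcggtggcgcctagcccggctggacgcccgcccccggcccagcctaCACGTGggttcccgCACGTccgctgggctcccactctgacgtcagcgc

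Hk2 held 2 matches, whose leftmost bases lay 226 and 52 bases before the start. Ldha held 5 and Pgk1 held 2, at 150 and 131 bases. The letters were not in this window of Vegfa. The window of Ldha lies within the span of that gene in the GENCODE annotation, outside its exons, and the other 3 lie upstream of their genes. Over the 300 bases that reach 50 past the start, 28 of the 35 members in the RefSeq promoter table held either motif on either strand, which is 80 percent, against 43.8 percent of 27025 genes by their first listed start. ACGTG alone was in 60 percent of these members and 19.67 percent of all genes. Either motif was in 11 of 16 glycolytic enzymes (68.75 percent) and in 7 of 9 hypoxia targets (77.78 percent). Slc2a3, Bnip3l and Ndrg1 were not in that table. Both motifs hold the letters CG, and the genes set beside the members were not matched for base composition. The members were also listed in part as targets of HIF. A match describes the letters and does not show binding.

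Expression is given as signal, the authors' DESeq2-scaled abundance per gene, which is not corrected for gene length, so levels are compared between libraries and not between genes. The summed signal ran from 1529120 to 3988760 in the 18 skin libraries and from 3502580 to 5717950 in the 12 circulating libraries of spleen and blood. Much of it came from 10 genes with Gm symbols, called satellite-like here. They held 18.4 to 77.4 percent of the signal in skin and 78.0 to 84.3 percent in circulating libraries. Outside them the order turned, with 901522 to 1672980 in skin and 743637 to 955246 in circulating libraries. The level of a set of 20 transcripts that all leukocytes make, in percent of the circulating mean, was 10.6 to 97.0 in skin and 89.2 to 112 in circulating libraries. It was lowest, at 10.6 to 22.4 percent, in B6 graft CD49a+ libraries 1 and 3, B6 recipient-skin libraries 1 and 3 and F1 recipient-skin libraries 2 and 3. Summed NK markers ran from 431 to 17368 in skin and from 14926 to 19246 in circulating libraries. Summed keratinocyte markers reached 4360 in a skin library, against at most 72.8 in circulating libraries, fibroblast markers 5080 against 182, macrophage and monocyte markers 6576 against 1041, neutrophil markers 14391 against 644 and erythroid markers 41704 against 1147. In bulk RNA of sorted cells, fewer cells of a type and less RNA per cell cannot be told apart.

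Hk2, the inducible hexokinase that commits glucose to the pathway, and Ndrg1, a stress-responsive gene induced through HIF, rose in all 6 skin groups relative to spleen of the same model. Vegfa, which encodes the angiogenic growth factor and HIF target VEGF-A, rose in 3 of the 6. These were the members that rose in more than 1 comparison. The abundant enzymes from aldolase to lactate dehydrogenase A and Hif1a itself passed the threshold in none of the 6 on the authors' scale, and did so in part when libraries were set to the same leukocyte level.

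Tests were made with limma on log2 of the signal plus 1, over the 16045 genes that reached 10 in 3 or more libraries, with an adjusted p threshold of 0.05 (Benjamini-Hochberg). Changes are differences on this log2 scale, which understates the change of low genes, and their errors are standard errors of the fit. The 10 groups share 1 spread per gene, but their libraries did not agree equally well. Libraries of a group correlated at 0.41 to 0.57 in B6 and 0.50 to 0.64 in F1 recipient skin. In spleen the values were 0.84 to 0.87 and 0.81 to 0.86. Errors may thus be too small for recipient skin and too large for spleen against blood. Of the 38 members 37 were tested, and Ankrd37 reached 10 in only 1 library. In graft CD49b+ cells against spleen, 3 members rose and 0 fell in B6, where 3.7 percent of all genes tested rose and 0.368 percent fell, and 3 rose and 0 fell in F1, where 10.6 percent rose and 1.61 percent fell. In graft CD49a+ cells against spleen, 3 rose and 0 fell in B6, with 12.5 and 3.77 percent of all genes, and 2 rose and 2 fell in F1, with 18.5 and 4.18 percent. In recipient-skin CD49a+ cells against spleen, 3 rose and 3 fell in B6, with 17.9 and 11 percent of all genes, and 2 rose and 0 fell in F1, with 11.3 and 4.44 percent. As a share of the 37, the higher calls lay above the share of all genes in B6 graft CD49b+ cells and below it in the other 5 comparisons, and the lower calls lay slightly above it in F1 graft CD49a+ cells and below it in the others, all from counts of 0 to 3. Single libraries moved these counts. In B6 graft CD49b+ cells 1 member was called without spleen library 1 or 3 or graft library 1 or 3. In F1 graft CD49a+ cells 2 were called without spleen library 1 or 2 and 6 without graft CD49a+ library 1, and in F1 recipient skin 0 were called without spleen library 2 and 1 without spleen library 1 or recipient-skin library 1 or 2. In B6 recipient skin 15 were called without recipient-skin library 2. The share of all genes is given below for that refit and is not given for the other refits without a single library.

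The split into higher and lower calls depended on the scale. With every library set to the same leukocyte level, 1, 23 and 11 members rose in B6 graft CD49b+, graft CD49a+ and recipient-skin cells and 2, 10 and 22 in the same F1 groups, and 0 fell. On that scale 0.486, 38.3 and 35.7 percent of all genes rose in B6 and 8.39, 25.5 and 36.7 percent in F1, and the median change of all genes was 0.80, 2.26 and 2.07 in B6 and 1.08, 1.60 and 2.18 in F1, against 0.26 to 0.44 on the authors' scale. As a share of the 37, the members that rose were 62.2 percent in B6 graft CD49a+ cells and 59.5 percent in F1 recipient skin, above all genes, and Aldoa, Tpi1, Gapdh, Pgam1, Eno1, Pkm, Ldha and Hif1a were among them in both. Ldha changed by 2.71 (adjusted p 0.00459) and 2.47 (0.00749) there, against a median of all genes of 2.26 and 2.18. Aldoa (2.58 and 3.33), Eno1 (2.39 and 3.19) and Hif1a (2.47 and 2.72) also lay above that median in both groups. Tpi1 (2.29 and 2.24) and Gapdh (2.26 and 1.88) lay close to it or below. Pgam1 (2.01 and 2.75) and Pkm (2.14 and 3.39) lay below it in B6 graft CD49a+ cells and above it in F1 recipient skin. In B6 recipient skin, F1 graft CD49b+ and F1 graft CD49a+ cells the shares of 29.7, 5.41 and 27 percent lay below or close to those of all genes, and in B6 graft CD49b+ cells the share was that of a single member. With every library set to the same total outside 10 satellite-like genes, 3 rose and 7 fell in B6 recipient skin. The share of all genes called on that scale is not given here, so these counts cannot be set against it. The 5 calls of lower members named below were lost on the leukocyte scale, while their changes stayed below 0.

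**Figure D1:**
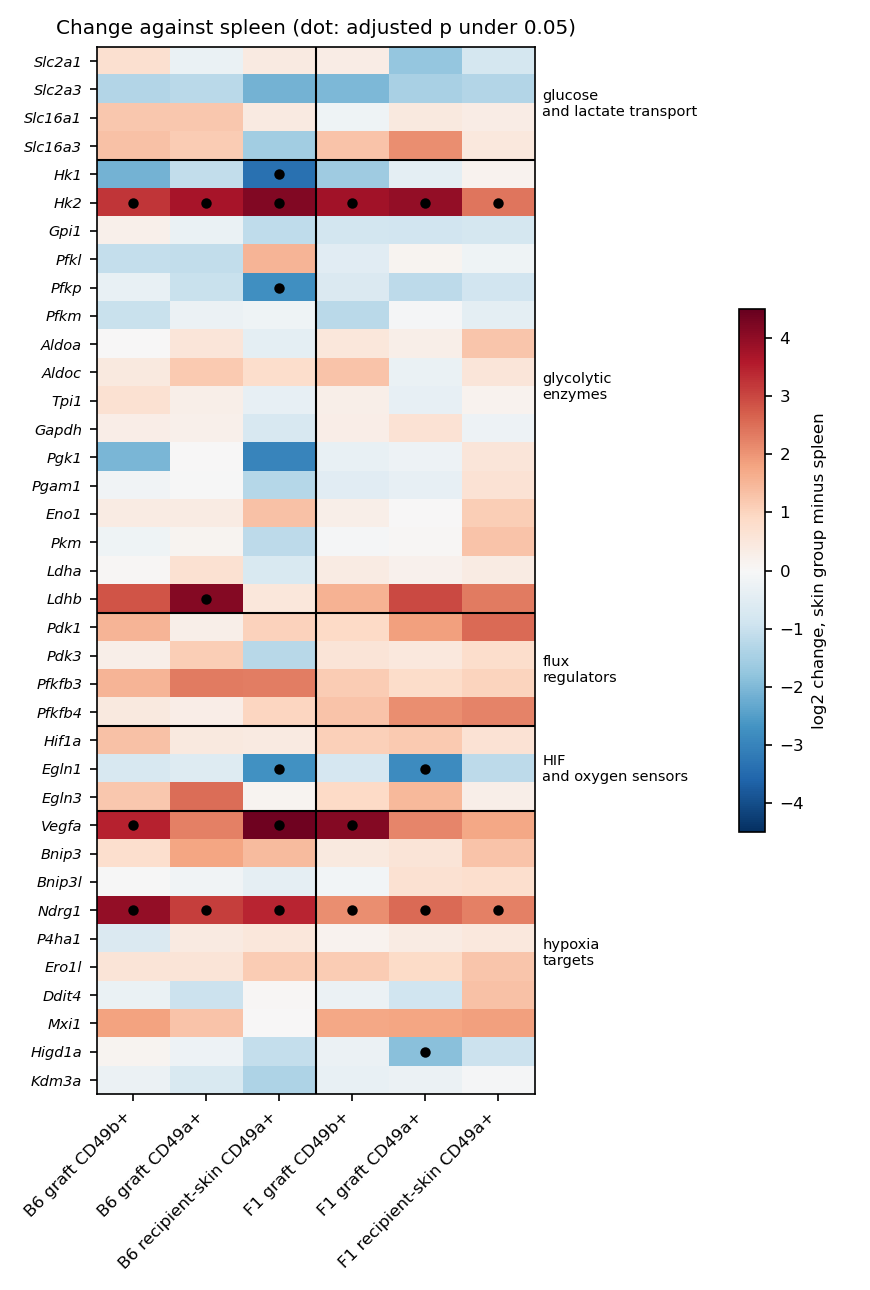
Log2 change of 37 members (rows, ordered by role) in each skin group minus spleen of the same model (columns), with red for higher and blue for lower in skin and a dot where the adjusted p is under 0.05. Hk2 and Ndrg1 carry a dot in all 6 columns and Vegfa in 3, while most enzymes from Gpi1 to Ldha carry none.

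Ndrg1 (chr15:66929318-66969640, minus strand, GRCm38) had a signal of 99.6, 59.9 and 448 in B6 graft CD49b+ libraries, 83.7, 36.9 and 154 in B6 graft CD49a+ libraries and 185, 82.2 and 58.6 in B6 recipient-skin libraries, against 4.11, 10.8 and 11.6 in B6 spleen. F1 values were 59.1, 86.8 and 85.9 in graft CD49b+, 95.9, 87.8 and 136 in graft CD49a+ and 46.1, 88.3 and 151 in recipient-skin cells, against 31.3, 15.3 and 10.2 in spleen. Every skin library lay above every spleen and blood library: the lowest of 18 was 36.9, in B6 graft CD49a+ library 2, and the highest of 12 was 31.3, in F1 spleen library 1. Among all genes tested, 2.43 percent had all 18 skin libraries above all 12 circulating ones. The log2 change against spleen was 3.94 (adjusted p 0.0031), 3.12 (0.00342) and 3.41 (0.000883) in B6 graft CD49b+, graft CD49a+ and recipient-skin cells, with a standard error of 0.66 each. The F1 changes were 2.10 (0.0368), 2.55 (0.00766) and 2.26 (0.0212). The F1 calls in graft CD49b+ and recipient-skin cells rested on single libraries. Without F1 spleen library 2 or 3 or any 1 of the 3 graft CD49b+ libraries the adjusted p in graft CD49b+ cells was 0.0578 to 0.151, and without F1 spleen library 2 or 3 or recipient-skin library 2 or 3 that in recipient skin was 0.0556 to 0.0994. The other 4 calls of Ndrg1 were kept whichever library was left out.

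Vegfa (chr17:46016993-46032369, minus strand), whose printed promoter stretch held no match, was at 17.5, 30.5 and 15.2 in B6 graft CD49b+ libraries, 2.96, 14 and 12 in B6 graft CD49a+ libraries and 21, 138 and 19 in B6 recipient-skin libraries, against 2.04, 0.631 and 0.375 in B6 spleen. The F1 libraries held 15.7, 90.1 and 77.3 in graft CD49b+, 5.97, 14.7 and 18.9 in graft CD49a+ and 7.68, 7.95 and 9.78 in recipient-skin cells, against 0.426, 1.32 and 5.82 in spleen. All skin groups lay above spleen without overlap, and 17 of 18 skin libraries lay above all 12 circulating libraries, the exception being B6 graft CD49a+ library 1 at 2.96. Among all genes tested, 10.3 percent had at least 16 skin libraries above all circulating ones. The shares for fewer libraries, for libraries below and for groups without overlap are not given here. The log2 change of Vegfa was 3.48 ± 0.83 (adjusted p 0.0198) in B6 graft CD49b+ cells, 4.38 ± 0.83 (0.000787) in B6 recipient skin and 4.12 ± 0.83 (0.00247) in F1 graft CD49b+ cells. It did not pass in B6 graft CD49a+ cells (2.28 ± 0.83, 0.0596), F1 graft CD49a+ cells (2.20 ± 0.83, 0.0563) or F1 recipient skin (1.74 ± 0.83, 0.149). With blood in place of spleen it was called in B6 (2.37, 0.0461) and F1 graft CD49a+ cells (2.64, 0.0285), as it was in F1 graft CD49a+ cells without spleen library 3 (2.83, 0.0382) or graft library 1 (2.64, 0.0388). The call in B6 graft CD49b+ cells was lost without any 1 of B6 spleen libraries 1, 2 and 3 or graft libraries 1 and 3, with an adjusted p of 0.0562 to 0.0985. The other 2 calls held whichever library was left out.

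Hk2 (chr6:82725025-82774454, minus strand), with its 2 motif matches upstream, was at 37.9, 25.2 and 36.0 in B6 graft CD49b+ libraries, 84.6, 38 and 30.8 in B6 graft CD49a+ libraries and 47.2, 94.7 and 58.3 in B6 recipient-skin libraries, against 2.80, 3.41 and 1.86 in B6 spleen. In the F1 model it stood at 101, 15 and 25.5 in graft CD49b+, 18.8, 33.5 and 94.3 in graft CD49a+ and 17.1, 6.58 and 17.4 in recipient-skin cells, against 0.712, 1.08 and 3.78 in spleen. Skin and spleen did not overlap in any of the 6 comparisons. Over both models 16 of 18 skin libraries lay above all 12 circulating ones, whose highest was B6 blood library 1 at 15.3, while 10.3 percent of all genes had at least 16 skin libraries above all circulating ones. The log2 change was 3.21 (adjusted p 0.0187), 3.70 (0.00276) and 4.16 (0.000563) in B6 graft CD49b+, graft CD49a+ and recipient-skin cells and 3.77 (0.00245), 3.97 (0.000834) and 2.40 (0.0319) in the same F1 groups, with a standard error of 0.76 each. In B6 graft CD49b+ cells the call was lost without B6 spleen library 1 or 3 or graft library 1 or 3, with an adjusted p of 0.0726 to 0.102. In F1 recipient skin it was lost without F1 spleen library 1 or 2 or recipient-skin library 1 or 3, with an adjusted p of 0.0540 to 0.119. The other 4 calls of Hk2 held whichever library was left out.

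**Figure D2:**
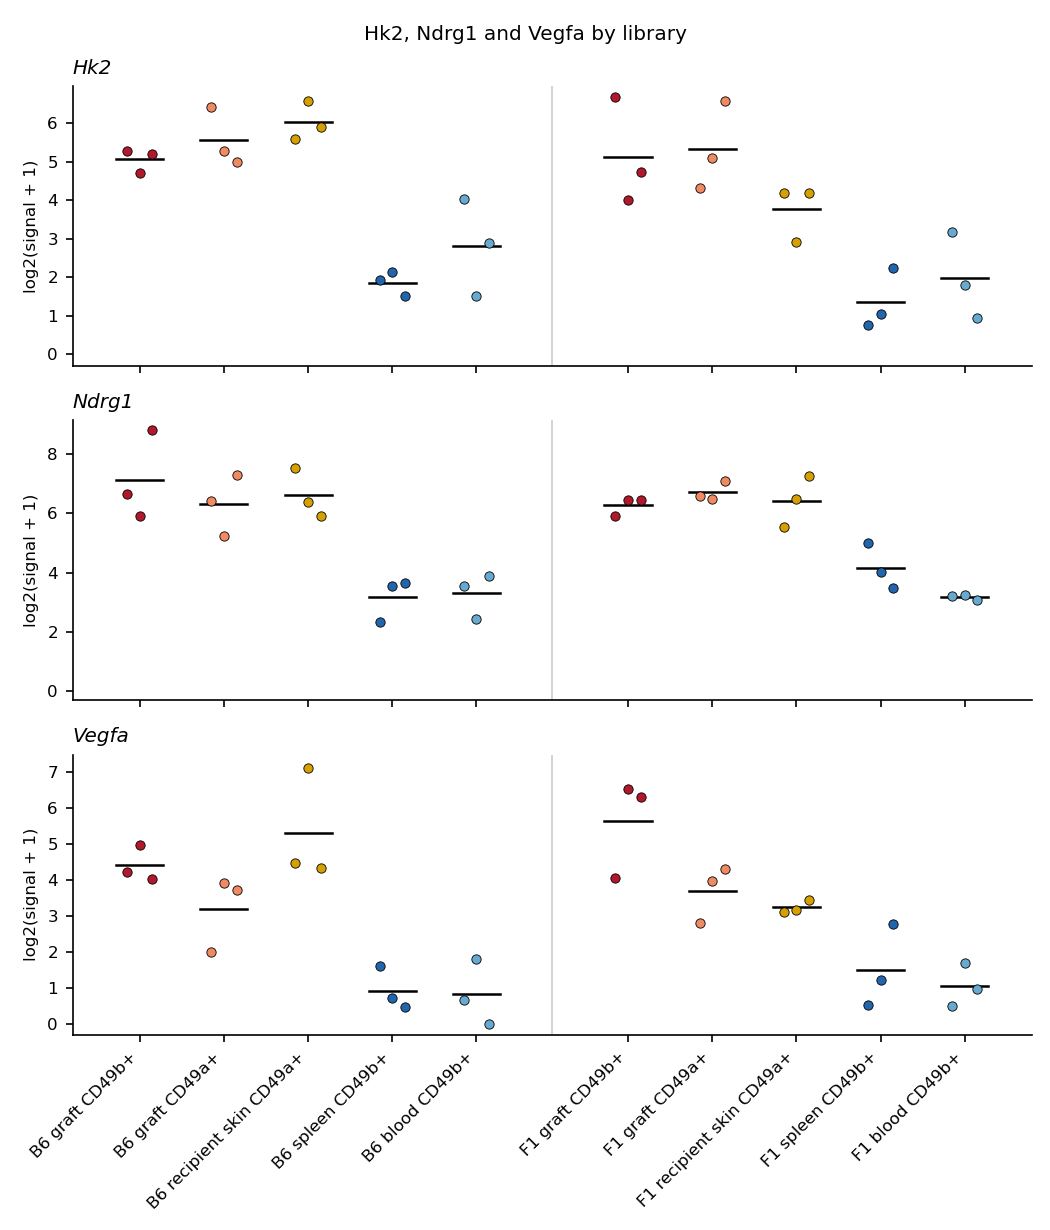
Log2 of the signal plus 1 of Hk2, Ndrg1 and Vegfa in each of the 30 libraries (points, 3 per group), with a bar at the group mean and the skin groups left of spleen and blood in each model. For Ndrg1 all 18 skin libraries lie above all 12 circulating ones, for Vegfa 17 and for Hk2 16.

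Transcripts of other cell types moved with these members in part. In B6 graft CD49b+ libraries the keratinocyte markers summed to 170, 539 and 1468, against 7.91 to 11 in B6 spleen, and the immediate-early and dissociation genes to 4877 to 7465, against 2488 to 3573. Fibroblast markers in B6 graft CD49b+ libraries summed to 2692, 347 and 343, against 19.9 to 123 in B6 spleen, and endothelial markers to 312, 154 and 966, against 99.3 to 326. In F1 graft CD49b+ libraries the keratinocyte sums were 9.61, 36.1 and 101, against 6.08 to 8.12 in F1 spleen, and the dissociation sums 2423 to 3006, against 1729 to 2422. Neutrophil markers there summed to 439, 918 and 230, against 14.4 to 18.9 in F1 spleen, and endothelial markers to 200.3, 298 and 216, against 59.5 to 77.8. In B6 recipient-skin library 2 these sums were 36.4 for keratinocytes, 61.1 for fibroblasts, 57.2 for endothelium, 630 for macrophages and monocytes, 89.2 for neutrophils and 2.64 for erythroid cells. Each lay within or below the range of the 12 circulating libraries, although the keratinocyte sum lay above that of B6 spleen. The macrophage and monocyte sum also lay above B6 spleen, which was at 377 to 520. T cell markers, at 965, lay above their circulating highest of 774. NK markers summed to 5877 in this library, against 16400 to 17078 in B6 spleen. In B6 recipient-skin libraries 1 and 3 the sums were 716 and 208 for keratinocytes, 327 and 352 for fibroblasts, 694 and 178 for endothelium, 1403 and 352 for macrophages and monocytes and 276 and 376 for neutrophils. The keratinocyte sums of both and the fibroblast sums of both lay above every B6 spleen library, and so did the endothelial and macrophage sums of library 1. Hk2 was 94.7, Vegfa 138 and Ndrg1 82.2 in recipient-skin library 2, and its dissociation sum of 9617 was the highest of all 30. B6 graft CD49a+ library 2, with keratinocyte and fibroblast sums of 38.8 and 24.3 but macrophage and monocyte markers at 2444, had Hk2 at 38, Vegfa at 14 and Ndrg1 at 36.9. In F1 graft CD49a+ library 2 neutrophil markers reached 14391 and erythroid markers 41704, and in F1 recipient-skin library 1 macrophage and monocyte markers reached 6576. The part of these cells and of dissociation in the members' values was not tested.

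Leaving out the 6 libraries with the lowest leukocyte level, an alternative added after the data were seen, kept Hk2, Vegfa and Ndrg1 in graft CD49b+ cells of both models and in B6 recipient skin, and Hk2 and Ndrg1 in F1 graft CD49a+ cells. It left a single library in 3 groups, which is then taken to vary like the others. There Hk2 missed the threshold in B6 graft CD49a+ cells (log2 change 3.42, adjusted p 0.0976) and F1 recipient skin (2.82, 0.0574), and so did Ndrg1 (2.05, 0.211, and 1.38, 0.226). For the 3 groups left with a single library no count is given here. The count of members called became 5, 5 and 11 in B6 graft CD49b+, F1 graft CD49b+ and F1 graft CD49a+ cells. Of the members 5, 4 and 7 rose and 0, 1 and 4 fell. As a share of the members tested, 13.5, 10.8 and 18.9 percent rose, against 12.4, 18.6 and 26 percent of all genes. The members that fell make 0, 2.70 and 10.8 percent, against 4.77, 7.68 and 14.3 percent of all genes. Vegfa was then called in F1 graft CD49a+ cells too (2.20, adjusted p 0.0254), and Mxi1 in graft CD49b+ cells of both models and F1 graft CD49a+ cells.

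**Figure D3:**
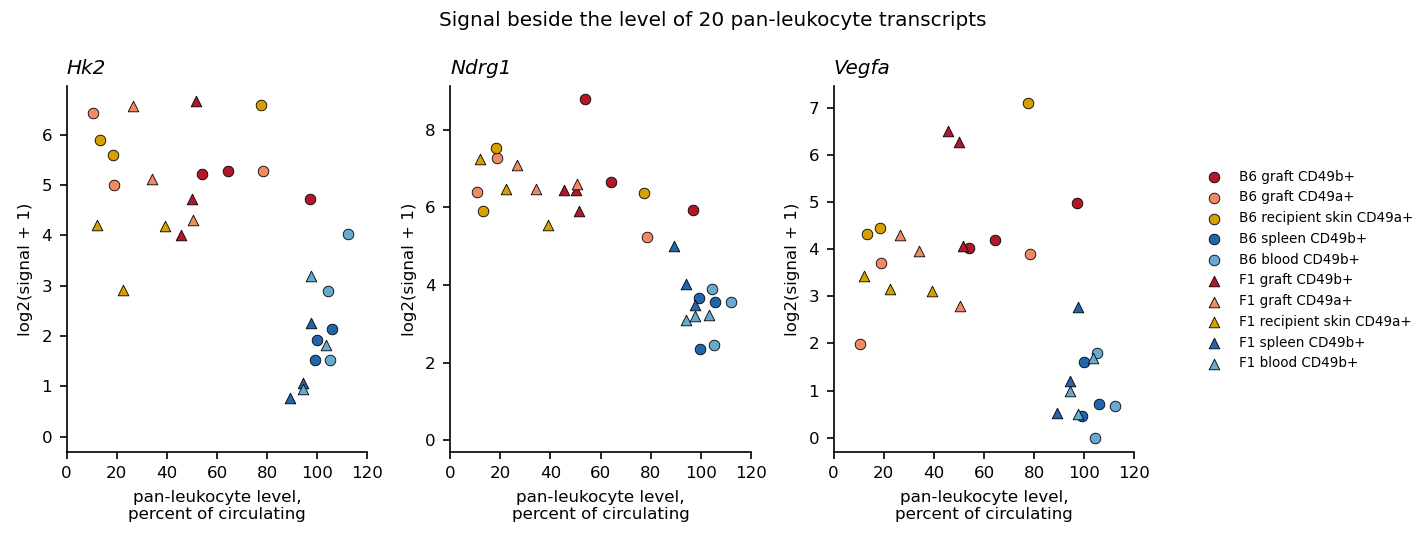
Log2 of the signal plus 1 of Hk2, Ndrg1 and Vegfa (y axes) against the level of 20 pan-leukocyte transcripts in percent of the circulating mean (x axes), with circles for B6 and triangles for F1 libraries. Skin libraries between 10.6 and 97.0 percent lie above nearly all spleen and blood libraries on the y axis, B6 recipient-skin library 2 at 77.4 percent among the highest.

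The other 8 tested hypoxia targets gave 1 call among them. Higd1a, which encodes a mitochondrial protein that supports respiration in hypoxia, fell in F1 graft CD49a+ cells to 43.3, 16.6 and 7.69, against 60.5, 75.1 and 68.9 in F1 spleen (log2 change -1.86 ± 0.67, adjusted p 0.0454). The groups did not overlap, but the call was lost without any 1 of the 3 spleen libraries or graft libraries 2 and 3, with an adjusted p of 0.0861 to 0.243. Bnip3l, a mitophagy receptor and the target with the highest mean signal, was at 52.7, 112 and 83.1 in B6 graft CD49b+ libraries, 66.2, 93.8 and 59.6 in B6 graft CD49a+ libraries and 96.0, 94.5 and 24 in B6 recipient-skin libraries, against 71.6, 87.5 and 80.5 in B6 spleen. Its F1 signal was 62.6, 44.2 and 71.8 in graft CD49b+, 71.3, 219 and 71.7 in graft CD49a+ and 69.5, 124 and 146 in recipient-skin cells, against 64.5, 60.6 and 68.0 in spleen. F1 graft CD49a+ and recipient-skin cells lay above spleen, the other groups overlapped it, and the changes lay between -0.39 and 0.74. Its relative Bnip3 ranged from 4.95 to 43.3 in skin and from 3.57 to 13.9 in circulating libraries, with changes of 0.45 to 1.76.

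Mxi1, a Myc antagonist induced by HIF, ranged from 1.48 to 35.2 with a median of 19.9 in skin and from 1.13 to 14.6 with a median of 6.88 in circulating libraries. Of the 18 skin libraries 12 lay above all circulating ones, and B6 recipient-skin library 2 held the lowest value. Its change was 1.29 to 1.83 in 5 comparisons, with adjusted p of 0.063 to 0.193, and 0.02 in B6 recipient skin. Ero1l, the oxidase of disulfide formation in the endoplasmic reticulum, changed by 0.58 to 1.26, with 10 of 18 skin libraries above all circulating ones. Ankrd37, an ankyrin repeat protein, was low throughout, at 0 to 11.5 in skin and 0 to 1.28 in circulating libraries, and 16 of 18 skin libraries lay above all circulating ones, but it was not tested. P4ha1, a collagen prolyl hydroxylase, changed by -0.63 to 0.51. Ddit4, an inhibitor of mTORC1, changed by -0.98 to 1.31, and Kdm3a, a histone demethylase, by -1.39 to -0.06, with 10 of 18 skin libraries of Kdm3a below all circulating ones. None of these 5 tested genes (Mxi1, Ero1l, P4ha1, Ddit4 and Kdm3a) passed.

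Among the HIF and sensor genes, the oxygen sensor fell in 2 comparisons and HIF-1α missed the threshold against spleen on the authors' scale. Egln1 (chr8:124908587-124949324, minus strand), the main prolyl hydroxylase that marks HIF for destruction, was at 3.80, 2.43 and 0 in B6 recipient skin, against 16.7, 13.9 and 16.5 in B6 spleen (log2 change -2.71 ± 0.85, adjusted p 0.02). In F1 graft CD49a+ cells it was at 3.97, 2.02 and 0, against 20.3, 17.8 and 12.9 in F1 spleen (-2.84 ± 0.85, 0.0176). Both pairs of groups were apart, and 14 of 18 skin libraries lay below all 12 circulating ones, yet in F1 recipient skin Egln1 was at 0, 15.8 and 27.9. The B6 call was lost without spleen library 1 or 3 or recipient-skin library 3 (adjusted p 0.0567 to 0.119), and the F1 call without spleen library 1 or 2 or graft CD49a+ library 3 (0.0513 to 0.114). Without the low-leukocyte libraries Egln1 was no longer called in B6 recipient skin (-2.28, 0.0664) and was called in F1 recipient skin (-4.14, 0.000568), where a single library at 0 was left. A listed 0 may also be a failed estimate, since Pgk1, which every cell uses, is listed at 0 in 2 libraries.

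Hif1a was at 99.0, 144 and 125 in B6 graft CD49b+ libraries, 79.2, 81.7 and 45.1 in B6 graft CD49a+ libraries and 43.3, 65.9 and 90.9 in B6 recipient-skin libraries, against 40.8, 97.0 and 27.9 in B6 spleen. In F1 it was at 84.4, 78.3 and 189 in graft CD49b+, 189, 109 and 78.3 in graft CD49a+ and 78.0, 62.3 and 104 in recipient-skin cells, against 32.3, 52.9 and 76.7 in spleen. Graft CD49b+ cells lay above spleen without overlap in both models, as did F1 graft CD49a+ cells. The change was above 0 in 6 of 6 comparisons, from 0.40 to 1.32, with the smallest adjusted p, 0.0930, in F1 graft CD49a+ cells (1.19, 95 percent interval 0.13 to 2.25). With blood in place of spleen Hif1a was called in B6 graft CD49b+ (1.90, adjusted p 0.0300) and F1 graft CD49a+ cells (1.51, 0.0410). On the leukocyte scale it was called in the 4 comparisons of graft CD49a+ and recipient-skin cells, with changes of 2.32 to 2.72 and adjusted p of 0.00684 to 0.0166. Egln3, a hydroxylase that HIF itself induces, ranged from 0 to 19.6 in skin and from 0 to 2.56 in circulating libraries, with 12 of 18 skin libraries above all circulating ones, and changed by 0.11 to 2.51 without a call.

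Of the 4 transporters none passed in any of the 6 comparisons. Slc2a3, the high-affinity glucose transporter GLUT3 and the one with the highest mean signal, was at 27.6, 45.8 and 38.5 in B6 graft CD49b+ libraries, 12.6, 114 and 40.9 in B6 graft CD49a+ libraries and 15.9, 1.44 and 245 in B6 recipient-skin libraries, against 90.6, 94.3 and 95.4 in B6 spleen. F1 values were 17.3, 45.3 and 28.3 in graft CD49b+, 24.5, 62.1 and 51.8 in graft CD49a+ and 142, 28.7 and 25 in recipient-skin cells, against 60.8, 97.0 and 281 in spleen. Graft CD49b+ cells lay below spleen without overlap in both models, and 14 of 18 skin libraries lay below all circulating ones, while B6 recipient-skin library 3 lay above most. The change was below 0 in 6 of 6 comparisons, from -2.13 to -1.23, with adjusted p of 0.104 to 0.453. Without the low-leukocyte libraries Slc2a3 was called lower in both F1 graft groups (CD49b+ -2.04, adjusted p 0.00627, and CD49a+ -1.44, 0.0267) and in B6 recipient skin, where the single library left held 1.44.

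Slc2a1, the ubiquitous glucose transporter GLUT1, ranged from 0 to 70.1 with a median of 24.2 in skin and from 16.3 to 84.8 with a median of 23.7 in circulating libraries, and its changes ran from -1.73 to 0.71. The lactate transporters were low. Slc16a1 (MCT1) ranged from 7.26 to 48.9 in skin and from 4.43 to 12.9 in circulating libraries, and Slc16a3 (MCT4), the HIF-induced exporter, from 0 to 70.8 and from 2.99 to 13.8. Of the 18 skin libraries 13 lay above all circulating ones for Slc16a1 and 12 for Slc16a3, with changes of -0.19 to 1.22 and of -1.55 to 2.10.

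Of the 16 glycolytic enzymes, Hk2 rose in 6 comparisons, Ldhb rose in 1, and Hk1 and Pfkp fell in 1. Hk1, the constitutive hexokinase, fell in B6 recipient skin to 36.0, 21 and 4.20, against 31.1, 281 and 508 in B6 spleen (log2 change -3.36 ± 1.01, adjusted p 0.0158). The groups overlapped, since spleen library 1 lay below recipient-skin library 1, and B6 blood was at 30.6, 35.1 and 32.8. The call was lost without spleen library 2 or 3 or recipient-skin library 3 (adjusted p 0.0631 to 0.107), and with blood in place of spleen the change was -1.06 (0.43). Pfkp, the platelet-type phosphofructokinase, fell in B6 recipient skin to 25.9, 44.1 and 25, against 222, 204 and 212 in B6 spleen (-2.76 ± 0.50, 0.000542). The groups lay far apart and the call held whichever library was left out. In the other 5 comparisons Pfkp changed by -1.19 to -0.34 without a call, and 13 of 18 skin libraries lay below all circulating ones.

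Ldhb, the lactate dehydrogenase subunit that favours lactate use, was at 24.5, 6.46 and 111 in B6 graft CD49a+ cells, against 0, 0.732 and 1.30 in B6 spleen (log2 change 4.13 ± 1.37, adjusted p 0.0398). The groups did not overlap, but the call was lost without any 1 of the 3 spleen libraries or graft CD49a+ libraries 1 and 3 (adjusted p 0.0796 to 0.201). Without the 2 low-leukocyte libraries of the group the change was 2.23 (0.378). With the 6 low-leukocyte libraries left out, Ldhb was called in B6 graft CD49b+ cells (2.81, 0.0330) and, with no fold given, in F1 graft CD49a+ cells (0.0115). In F1 Ldhb was at 3.15, 0 and 5.15 in graft CD49b+, 1.05, 8.39 and 23.5 in graft CD49a+ and 0, 0 and 129 in recipient-skin cells and was listed at 0 in all 3 spleen libraries. Its partner Ldha, the subunit that makes lactate and whose promoter stretch above held the most matches, had the highest mean signal of the enzymes and was at 386, 792 and 389 in B6 graft CD49b+ libraries, 856, 842 and 596 in B6 graft CD49a+ libraries and 189, 629 and 206 in B6 recipient-skin libraries, against 531, 437 and 445 in B6 spleen. In the F1 model it stood at 708, 582 and 540.1 in graft CD49b+, 670.2, 652 and 359 in graft CD49a+ and 411, 294 and 1899 in recipient-skin cells, against 482, 477 and 453 in spleen. B6 graft CD49a+ and F1 graft CD49b+ cells lay above spleen, and the other groups overlapped it. The changes of Ldha were 0.07 (95 percent interval -1.07 to 1.21), 0.68 (-0.45 to 1.82) and -0.69 (-1.83 to 0.45) in B6 graft CD49b+, graft CD49a+ and recipient-skin cells and 0.36 (-0.78 to 1.5), 0.20 (-0.94 to 1.34) and 0.38 (-0.76 to 1.52) in the same F1 groups.

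The enzymes of the lower pathway had their widest spread in recipient skin. Pkm, pyruvate kinase, changed by -0.20 (-1.61 to 1.21) in B6 graft CD49b+ and -0.06 (-1.47 to 1.35) in F1 graft CD49b+ cells, and by 0.12 (-1.29 to 1.53) and 0.06 (-1.35 to 1.47) in graft CD49a+ cells. Gapdh, glyceraldehyde-3-phosphate dehydrogenase, changed by 0.24 to 0.65 in the 4 graft comparisons and by -0.74 and -0.21 in B6 and F1 recipient skin. In F1 recipient-skin library 3, Pkm reached 4877, Ldha 1899, Aldoa 1532, Pgam1 1099.5 and Pgk1 579.8, each the highest of the 30 libraries, while libraries 1 and 2 had Pkm at 527 and 286. In B6 recipient skin, library 2 held Eno1 at 2280.2, against 339 and 536 in libraries 1 and 3, and library 1 held Pfkl at 1853, against 82 and 23.3. Pgk1 was listed at 0 in B6 graft CD49b+ library 1 and B6 recipient-skin library 3 and at 11.2 in B6 recipient-skin library 1, against at least 54.5 in the other libraries. The mouse genome carries processed copies of several of these genes, among them Gapdh, Pgk1, Eno1 and Ldha, and the estimation could have split reads between copies, so single values are uncertain.

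**Figure D4:**
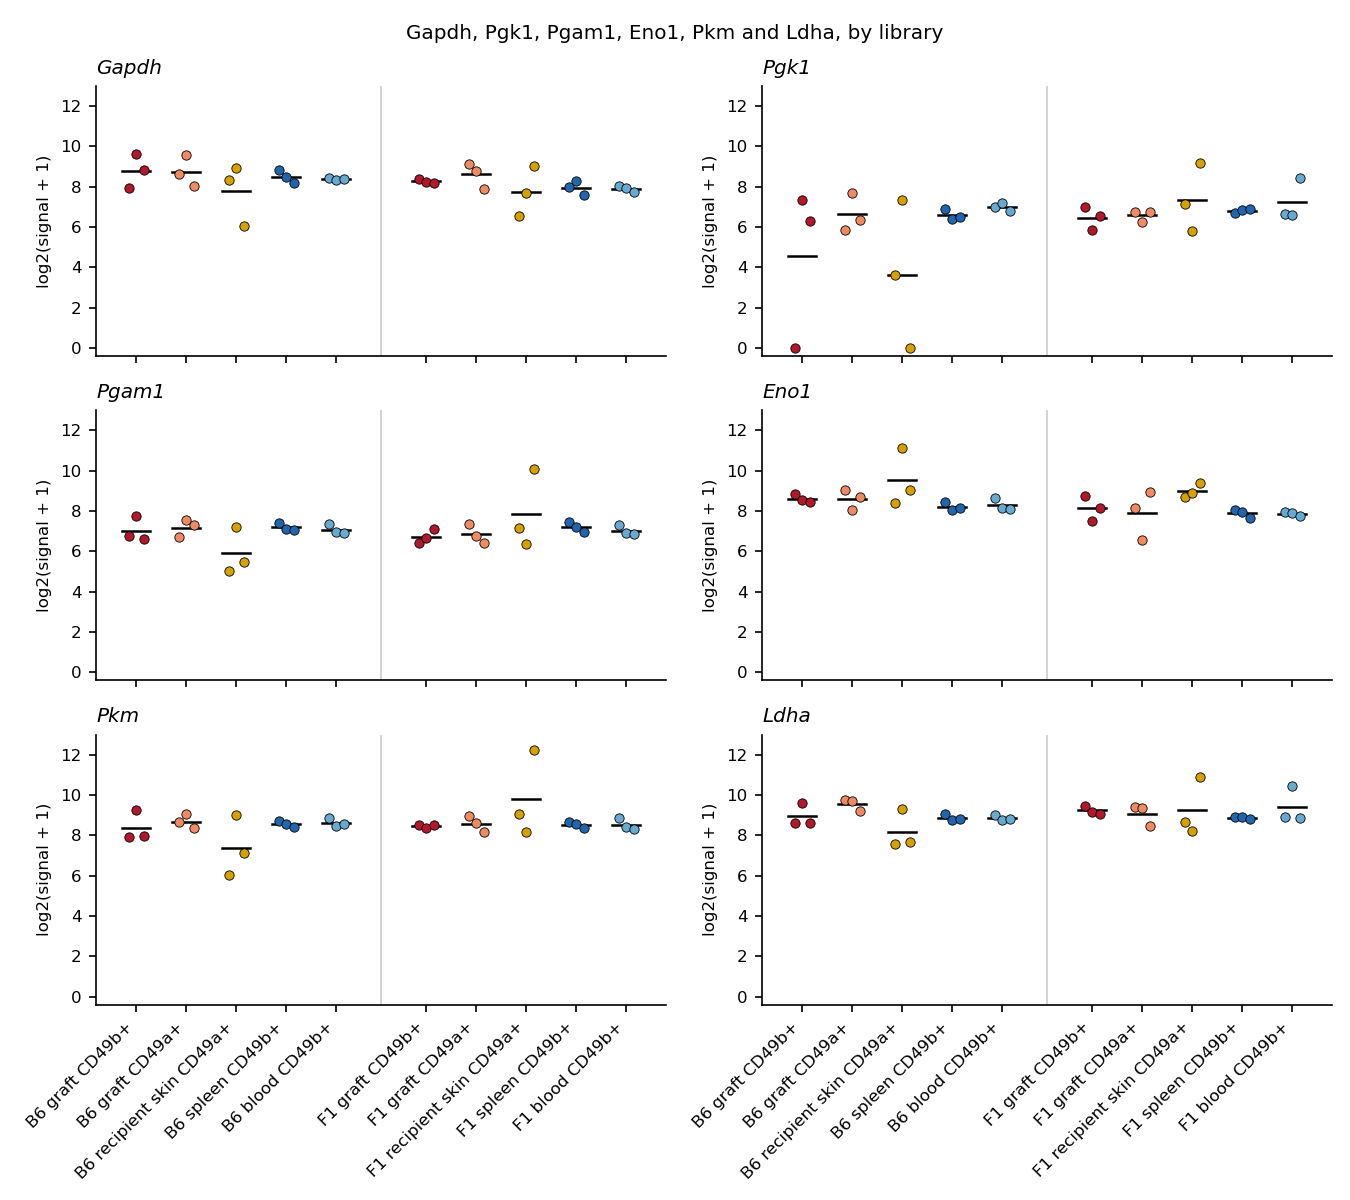
Log2 of the signal plus 1 of 6 enzymes of the lower pathway in each of the 30 libraries (points, 3 per group), with a bar at the group mean and the skin groups left of spleen and blood in each model. Graft groups lie around the circulating ones, and recipient skin is the most spread, with F1 library 3 highest for Pkm, Ldha, Pgam1 and Pgk1 and B6 library 2 highest for Eno1.

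The remaining enzymes gave no call against spleen. Tpi1, triosephosphate isomerase, changed by -0.38 to 0.68 and Aldoa, the aldolase of most tissues, by -0.45 to 1.24. Gpi1, glucose-6-phosphate isomerase, changed by -1.14 to 0.21, with 10 of 18 skin libraries below all circulating ones. Pgam1, phosphoglycerate mutase, changed by -1.28 to 0.66 and Eno1, enolase, by 0.00 to 1.32, with 10 of 18 skin libraries of Eno1 above all circulating ones. Of the minor forms, Pfkl changed by -1.12 to 1.53, Pfkm by -1.22 to -0.04 and Aldoc by -0.30 to 1.29. The calls in B6 recipient skin depended on library 2. Without it 15 members were called, 5 higher and 10 lower, with Gpi1 (log2 change -1.64, adjusted p 0.0152), Pgk1 (-4.80, 0.00519), Pgam1 (-1.94, 0.0178), Pkm (-1.99, 0.0216), Pdk3 (-2.01, 0.0473), Higd1a (-1.85, 0.0293) and Kdm3a (-2.04, 0.00698) lower and Pfkfb3 (2.89, 0.0223) and Pfkfb4 (2.5, 0.0126) higher beside the 6. As a share of the 37 this is 13.5 percent higher and 27 percent lower, where 25.5 percent of all genes rose and 17.2 percent fell without that library. The 2 libraries left are those with a leukocyte level of 18.3 and 13.3 percent of the circulating mean.

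The 4 flux regulators had changes above 0 in all 4 members in 5 of the 6 comparisons and in 3 of 4 in B6 recipient skin, and none passed. Pfkfb3, which makes the activator of phosphofructokinase and had the highest mean signal of the 4, was at 212, 9.5 and 32.5 in B6 graft CD49b+ libraries, 214, 36.7 and 50.6 in B6 graft CD49a+ libraries and 151, 31 and 78.1 in B6 recipient-skin libraries, against 21.1, 11.5 and 10.7 in B6 spleen. In F1 it was at 89.3, 24.8 and 35.3 in graft CD49b+, 29.9, 40.2 and 32.2 in graft CD49a+ and 76.7, 67.3 and 10.6 in recipient-skin cells, against 28.1, 34.0 and 6.55 in spleen. B6 graft CD49a+ and recipient-skin cells lay above spleen, with changes of 2.34 (adjusted p 0.0746) and 2.30 (0.0566), and the F1 groups overlapped it. Pfkfb4, its relative, changed by 0.28 to 2.24. Pdk1, a kinase that keeps pyruvate out of the mitochondria and a HIF target, ranged from 6.70 to 172 in skin and from 3.52 to 76.7 in circulating libraries and changed by 0.26 to 2.57, with an adjusted p of 0.0631 in F1 recipient skin. Pdk3, of the same family, changed by -1.23 to 1.12. The median change of all genes tested was 0.26 to 0.44 in the same comparisons.

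Set side by side, the hypoxia targets lay higher in skin, as did the mean over all genes tested, and the glycolytic enzymes spread around the circulating range. Ndrg1 and Vegfa held much of the difference in the targets. The mean log2(signal + 1) over the 11 targets had a lowest, median and highest value of 4.12, 4.59 and 5.35 in skin and 3.45, 3.62 and 3.99 in circulating libraries, and 18 of 18 skin libraries lay above all circulating ones. Over all genes tested the same mean was 3.57, 3.99 and 4.19 in skin and 3.31, 3.41 and 3.57 in circulating libraries, with 17 of 18 above. Over the 9 targets other than Ndrg1 and Vegfa, left out after their values were seen, it was 3.77, 4.35 and 5.35 in skin and 3.69, 3.97 and 4.23 in circulating libraries, with 12 of 18 above. Over the 16 enzymes it was 5.03, 6.25 and 8.26 in skin and 5.86, 6.05 and 6.41 in circulating libraries, with 6 skin libraries above and 5 below the circulating range. The enzymes minus the targets gave 0.63, 1.67 and 2.92 in skin and 1.87, 2.49 and 2.95 in circulating libraries, and 12 of 18 skin libraries lay below all circulating ones. These levels are a description, with no test.

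By comparison, the median change of the 10 tested targets was 0.36 and 0.30 in B6 and F1 graft CD49b+ cells, 0.49 and 0.63 in graft CD49a+ cells and 0.28 and 1.26 in recipient skin. For the 16 enzymes it was 0.05 and 0.10, 0.18 and -0.02, and -0.57 and 0.45 in the same order, and for all genes tested 0.33 and 0.26, 0.44 and 0.39, and 0.40 and 0.35. The targets' median lay close to that of all genes in 5 of the 6 comparisons and above it in F1 recipient skin.

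**Figure D5:**
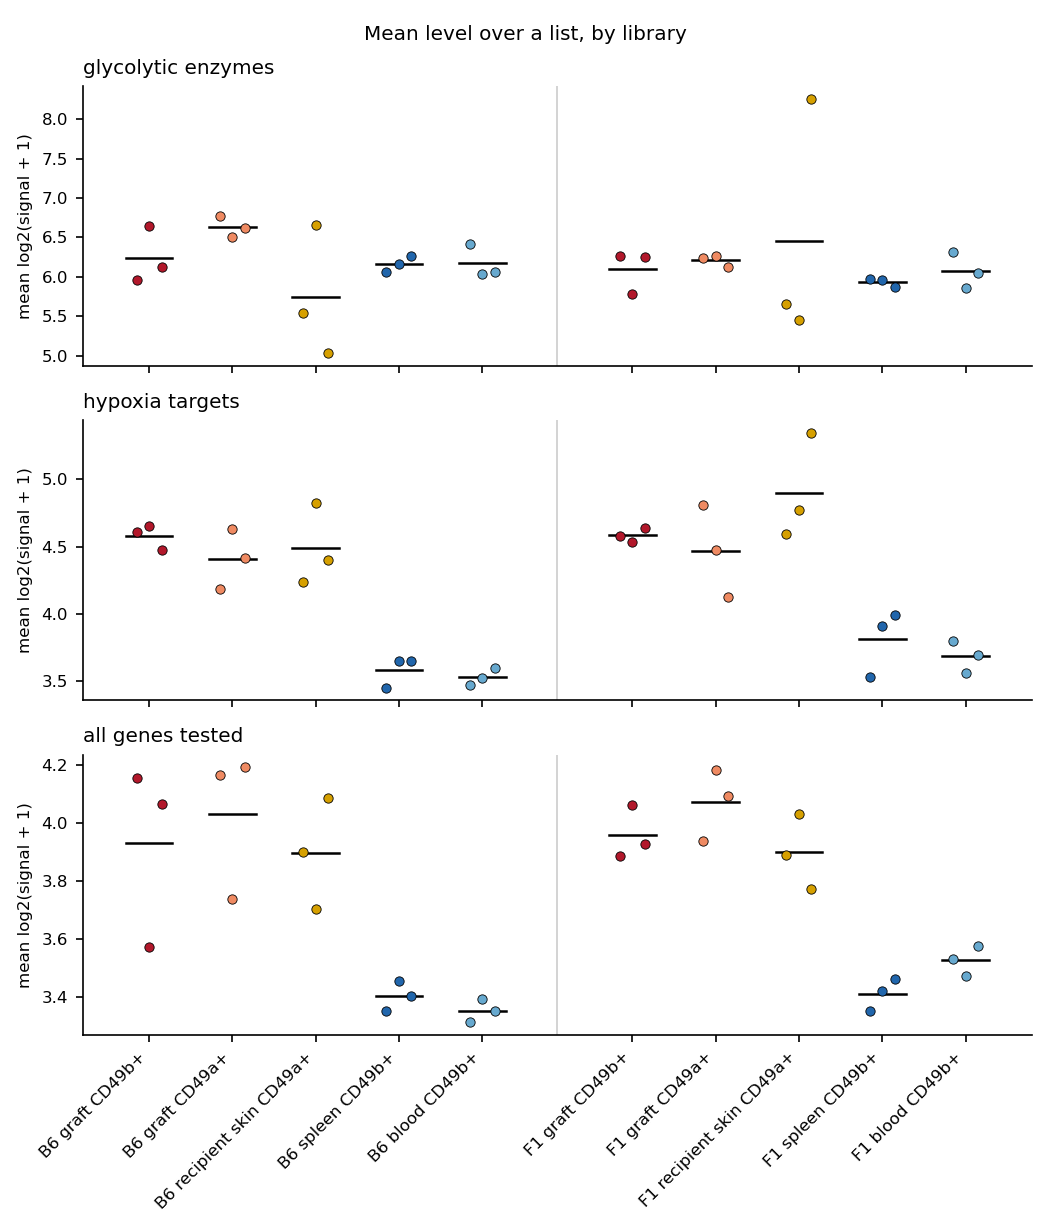
Mean log2(signal + 1) over 16 glycolytic enzymes, 11 hypoxia targets and the 16045 genes tested, for each of the 30 libraries (points, 3 per group), with a bar at the group mean and the skin groups left of spleen and blood. All 18 skin libraries lie above the circulating ones for the targets, 17 of 18 do so for all genes, and the enzymes range from 5.03 to 8.26 in skin around the circulating range of 5.86 to 6.41.

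Within skin no member was called. In graft CD49a+ against graft CD49b+ cells limma called 0 of 37 members in each model, with 0.0125 percent of all genes called in B6 and 0.00623 percent in F1. At an unadjusted p under 0.05 there were 0 members in B6 and 4 in F1, where Slc2a1, Egln1, Vegfa and Higd1a were lower in CD49a+ cells. Vegfa was at 5.97, 14.7 and 18.9 in F1 graft CD49a+ cells, against 15.7, 90.1 and 77.3 in graft CD49b+ cells, a change of -1.93 (95 percent interval -3.63 to -0.22). In B6 the same comparison gave Vegfa -1.20 and Hk2 0.50 on the log2 scale.

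In graft CD49a+ against recipient-skin CD49a+ cells 0 members were called in either model, where 0.224 percent of all genes were called in B6 and 0.0249 percent in F1. At an unadjusted p under 0.05 there were 11 in B6, which is 29.7 percent of the 37 against 12.2 percent of all genes. Slc16a3, Hk1, Pfkp, Pgk1, Ldha, Ldhb, Pdk3, Egln1 and Egln3 were higher in the graft at that level, and Pfkl and Vegfa lower. Pfkp had the smallest adjusted p, 0.136, with 169, 89.1 and 79.9 in the graft, against 25.9, 44.1 and 25 in recipient skin (log2 change 1.77, 95 percent interval 0.74 to 2.79). Without B6 recipient-skin library 2, limma called 5 members higher in the graft: Pfkp, Aldoa, Pgk1, Ldha and Pdk3. The recipient-skin libraries then left have a leukocyte level of 18.3 and 13.3 percent of the circulating mean. The share of all genes called is not given here for this or the other refits of these comparisons. Without the low-leukocyte libraries the change between single libraries was 5.56 for Slc2a3 and 4.75 for Slc16a3. In F1 there were 2 members at an unadjusted p under 0.05, Hk2 higher and Ddit4 lower in the graft. Without F1 recipient-skin library 1 limma called 1 member there, Egln1 (-3.16, adjusted p 0.0495), and without the low-leukocyte libraries it called 2, Pfkl and Gapdh.

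In spleen against blood 0 members were called in either model, where 0.00623 percent of all genes were called in each. At an unadjusted p under 0.05 there was 1 in B6, Hk1, whose spleen values of 31.1, 281 and 508 stood against 30.6, 35.1 and 32.8 in blood, and 0 in F1. Hk2 was at 2.80, 3.41 and 1.86 in B6 spleen, against 15.3, 1.89 and 6.39 in blood.

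The difference between the models, F1 minus B6, was tested for the 6 kinds of comparison, and limma called 0 members in each. Of all genes, 0 percent were called for graft CD49b+ cells against spleen, 0.00623 percent for graft CD49a+ cells against spleen and for graft CD49a+ against graft CD49b+ cells, 0.0125 percent for recipient skin against spleen and for spleen against blood, and 0.0187 percent for graft CD49a+ cells against recipient skin. For recipient skin against spleen 6 members had an unadjusted p under 0.05 (16.2 percent of the 37, against 6.37 percent of all genes). The difference was above 0 for Hk1 (3.53), Pfkp (1.89), Aldoa (1.68), Pgam1 (1.94) and Pkm (2.46) and below 0 for Vegfa (-2.64), with adjusted p of 0.648 to 0.757. For graft CD49a+ against recipient skin 7 had such a p (18.9 percent, against 11.1 percent), with Egln1 at -3.80 and the smallest adjusted p, 0.224. Both sets share the recipient-skin groups, in which F1 library 3 held the highest Pkm and Pgam1. Without the low-leukocyte libraries, Slc2a3 and Pfkl were called in both. In graft CD49b+ against spleen, graft CD49a+ against spleen and graft CD49a+ against graft CD49b+ cells 0 of 37 had an unadjusted p under 0.05, and in spleen against blood 1 did. For Hk2 the difference in graft CD49b+ cells was 0.56 and for Ndrg1 -1.84.

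Other genes of the same pathways were read from 3 lists. In the list of 40 further hypoxia genes, 36 were tested, and 4, 6 and 8 rose and 0, 1 and 3 fell in B6 graft CD49b+, graft CD49a+ and recipient-skin cells, against 2, 5 and 6 higher and 1, 1 and 1 lower in the same F1 groups. The genes that rose make 11.1, 16.7 and 22.2 percent of the 36 in B6 and 5.56, 13.9 and 16.7 percent in F1, where 3.7, 12.5 and 17.9 percent and 10.6, 18.5 and 11.3 percent of all genes tested rose, so that the list lay above all genes in the 3 B6 comparisons and F1 recipient skin and below them in both F1 graft groups. Hilpda, a HIF target that guards lipid droplets, rose in 6 of 6 comparisons by 2.82 to 4.28 on the log2 scale, and Epas1, which encodes HIF-2α, in 6 of 6 by 3.08 to 3.80. Hilpda was at 77.0, 252 and 30.4 in B6 recipient skin, against 5.47, 9.54 and 3.77 in B6 spleen, and at 140.0, 65.7 and 45.4 in F1 graft CD49b+ libraries, against 7.38, 1.27 and 3.16 in F1 spleen. Epas1 was at 159, 15.3 and 51.5 in B6 recipient skin, against 7.32, 3.96 and 2.64 in spleen, where the endothelial markers summed to 694, 57.2 and 178 in the same recipient-skin libraries. In F1 recipient skin it was at 14.2, 425 and 31.7, with endothelial sums of 164, 885 and 53.1. Epas1 was thus highest in the library with the highest endothelial sum in both recipient-skin groups, and the part of endothelial cells in its values was not tested. Rora, a nuclear receptor, rose in 4, Kdm6b, a histone demethylase, in the 3 B6 comparisons, and Hmox1, haem oxygenase, in 3. Arnt2, a partner subunit of HIF, rose in B6 graft CD49a+ cells (3.43, adjusted p 0.00942) and B6 recipient skin (4.93, 0.000416). Tfrc, the transferrin receptor, rose in F1 graft CD49a+ cells (2.66, 0.0108) and F1 recipient skin (3.25, 0.00443), and P4ha2, a collagen prolyl hydroxylase, rose in 3. Jmjd6, a dioxygenase of the same wider family, fell in 2, as did Cited2, a competitor of HIF for its coactivator, in B6 graft CD49a+ (-2.52, 0.0449) and F1 graft CD49b+ cells (-2.63, 0.0444).

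Of 37 further glycolysis genes 29 were tested, and Pfkfb2, a relative of Pfkfb3, rose in the 3 B6 comparisons, by 4.01, 6.40 and 4.66 in graft CD49b+, graft CD49a+ and recipient-skin cells. Slc2a6, a glucose transporter, rose in F1 graft CD49b+ cells (3.20, adjusted p 0.0281). Pdk2, a relative of Pdk1, fell in 3, and Mpc2, a subunit of the mitochondrial pyruvate carrier, fell in B6 recipient skin (-3.06, 0.0228). Per comparison 0 to 2 of the 29 rose, which is 0 to 6.9 percent and below the share of all genes that rose in each of the 6 comparisons, and 0 to 2 fell. Of 25 genes of Myc and mTORC1, which drive growth and glycolysis, 24 were tested, and 2, 1 and 1 rose and 0, 0 and 5 fell in B6 graft CD49b+, graft CD49a+ and recipient-skin cells, against 1, 2 and 2 higher and 0, 1 and 1 lower in the same F1 groups. The share of the 24 that rose was 4.17 to 8.33 percent, above that of all genes only in B6 graft CD49b+ cells, and the 5 that fell in B6 recipient skin make 20.8 percent, against 11 percent of all genes. Odc1, the polyamine enzyme and Myc target, rose in 6 of 6 by 2.15 to 2.94, with 179.5, 79.4 and 74.3 in F1 graft CD49b+ cells against 12.9, 13.2 and 16 in F1 spleen. Slc3a2, an amino acid transporter chain, rose in 2, and its partner Slc7a5 in F1 graft CD49a+ cells (3.83, adjusted p 0.00931). Akt1, a kinase upstream of mTORC1, fell in F1 graft CD49a+ cells (-3.00, 0.0405) and Max, the partner of Myc, in F1 recipient skin (-2.23, 0.0344). The 5 that fell in B6 recipient skin were Sesn1 (-3.62, 0.00329) and Tsc2 (-3.18, 0.00618), inhibitors of mTORC1, Mlst8 (-2.79, 0.00964), a subunit of mTORC1, Prkaa1 (-1.54, 0.0469), a catalytic subunit of AMP-activated kinase, and Myc itself (-1.83, 0.0251), the last 3 named after their values were seen. Myc was at 122, 35.8 and 91.1 in B6 graft CD49a+ cells and 3.89, 18.1 and 9.11 in B6 recipient skin, against 34.4, 43.5 and 25.8 in B6 spleen. It was higher in B6 graft CD49a+ than in recipient-skin cells (log2 change 2.93, adjusted p 0.0372), and graft CD49a+ cells overlapped spleen without a call. The lists were read for single genes and were not tested as lists.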

How the data were processed

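RNA was sequenced from sorted NK cells in 30 libraries. The authors deposited 1 table of signal per gene, normalized with DESeq2 per the labels, and the submitters' processing notes also name Salmon and GRCm38/mm10, without versions. Of the low values, 15.0 to 22.1 percent per library came out as whole multiples of a read (tolerance 0.1), so no count test was run. Of 30616 entries, 30587 were used: 1 had no name, 27 had a date for a symbol and 1 held a cell that is no number. There were 2 numeric columns of no sample, which were not used.

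Groups come from the labels. limma 3.58.1 (R 4.3.3) was fitted to log2(signal + 1) with 1 mean per group over all 30 libraries and a robust, intensity-dependent prior, for 12 comparisons and 6 differences between the models. Benjamini-Hochberg adjustment ran over 16045 genes, and the procedure was tested on simulated data. Without raw counts the counting error of a value is unknown. Tables and figures were made with Python 3.11.15, pandas 2.3.3 and matplotlib 3.10.9. The members and lists were chosen with earlier results of these data known. Values in each library are given for members called in at least 1 comparison and for the member of each role with the highest mean signal, with library values of other enzymes added after they were seen. Of other pathway genes at most 3 per comparison and list, by smallest adjusted p, are named, except 1 that is not reported here.

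Replicate numbers were checked for pairing by the correlation of deviations from the group means. All 3 correlations passed 0.1 only for B6 graft CD49a+ against recipient skin (0.137, 0.403 and 0.150), where the block changed no call. In B6 graft CD49a+ against graft CD49b+ cells pair 2 reached 0.377, with 0.0945 and 0.0777 for pairs 1 and 3. Library 2 also had the highest leukocyte level in B6 graft CD49b+, graft CD49a+ and recipient-skin cells (97.0, 78.5 and 77.4 percent of circulating). What these libraries share was not tested. Alternatives were another pseudocount (10), no filter (29127 genes) and a stricter one (50, 7187 genes), 3 scalings, the replicate block, the 2 groups alone, blood in place of spleen leaving out each library and, added after the data were seen, leaving out the 6 skin libraries with the lowest leukocyte level. Sequences are RefSeq's on GRCm38.p6, and gene positions are GENCODE's on GRCm38.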

Additional observations from a re-analysis of the deposited data

How the results depend on the processing

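Of the 21 calls against spleen, 7 were kept under every alternative run (Hk2, Vegfa and Ndrg1 in B6 recipient skin, Hk2 and Vegfa in F1 graft CD49b+ cells, Hk2 and Ndrg1 in F1 graft CD49a+ cells). Of 333 refits of the calls 248 kept the call and 0 turned its direction. The count of members called moved as follows. The share of all genes is given above for the leukocyte scale and for B6 recipient skin without library 2. It is given above for leaving out the low-leukocyte libraries in the groups that kept all libraries, and below for blood. For the other settings it is not given here, so those counts cannot be set against it. In B6 graft CD49b+ cells against spleen it was 3, and 1 with a pseudocount of 10, quantile normalization, the same total, the leukocyte scale or the 2 groups alone, 5 without the low-leukocyte libraries and 1 to 3 without single libraries. In B6 graft CD49a+ cells it was 3, and 23 on the leukocyte scale, 5 with the replicate block, 6 against blood and 2 to 4 without single libraries. In B6 recipient skin it was 6, and 10 with the same total, 11 on the leukocyte scale and 4 to 15 without single libraries. In F1 graft CD49b+ cells it was 3, and 5 without the low-leukocyte libraries. In F1 graft CD49a+ cells it was 4, and 10 on the leukocyte scale, 7 against blood, 11 without the low-leukocyte libraries and 2 to 6 without single libraries. In F1 recipient skin it was 2, and 1 with a pseudocount of 10, no filter, quantile normalization or blood, 22 on the leukocyte scale, 0 with the 2 groups alone and 0 to 2 without single libraries. For graft CD49a+ against recipient-skin cells it was 0 in both models, 2 in each without the low-leukocyte libraries, and without single libraries 0 to 5 in B6 cells and 0 to 1 in F1 cells. The differences between the models in recipient skin against spleen and in graft CD49a+ cells against recipient skin had 0, and 2 each without the low-leukocyte libraries. The causes were not tested, beyond what each setting leaves out.

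The labels do not say what a shared replicate number marks. Against spleen, the replicate block gave 3, 5 and 7 members in B6 graft CD49b+, graft CD49a+ and recipient-skin cells. It gave 3, 5 and 3 in the same F1 groups against spleen, and 0 elsewhere. The leukocyte scale moved the median of all genes to between 0.80 and 2.26, and quantile normalization to -0.19 to -0.05. With 3 libraries a group and no counts, intervals of the abundant enzymes spanned more than 2 on the log2 scale. In data simulated for B6 graft CD49b+ cells against spleen, limma recovered 14 of 100 genes with a true log2 change of 2. It recovered 60 of 100 with a change of 4. A missing call alone thus does not mean that a change of such size was absent. For some members the 95 percent interval did not reach 2 in either direction. Examples in B6 graft CD49b+ cells against spleen are Ldha (-1.07 to 1.21) and Pkm (-1.61 to 1.21). For others it did, such as Slc2a1 (-1.35 to 2.76) in the same comparison.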
